A study of Rattus norvegicus with 12 samples.

Results

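Circular RNAs (circRNAs) of rats that had a partial hepatectomy and needles placed without current (HT+SEA) were compared with those of normal control rats (NC), in hypothalamic tissue labelled PVN, which the study spells out as the periventricular nucleus. These were 6 of the 12 libraries of the series, 3 from HT+SEA and 3 from NC, chosen by their labels alone. Per the study's methods, all animals were male Sprague-Dawley rats, 7 weeks old when bought, and all were habituated to a restraint device and restrained for the same time. The HT+SEA rats were anesthetized with isoflurane, a part of the liver amounting to some 20% of its left lobe was cut out, and they received needling of 1 leg at the Zusanli and Sanyinjiao acupoints with no current passed. The NC rats had neither operation nor needles, so that surgery, its anesthesia and needling cannot be told apart in this comparison. Tissue was taken 24 h after the last treatment. The remaining libraries came from hepatectomy alone (HT, 3 libraries) and hepatectomy with electroacupuncture (HT+EA, 3 libraries), and they served to estimate the spread and to place the named circRNAs.

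A circRNA is a closed loop made by back-splicing, in which a downstream splice donor of a host transcript is ligated to an upstream acceptor. Because it has no free ends, it resists exonucleases, and circRNAs are known to be plentiful in brain, where some bind microRNAs or proteins. This region, as the study describes it, holds neurons that release corticotropin-releasing hormone, which starts the hypothalamic-pituitary-adrenal response to stress such as surgery. The question was whether operated rats other than those of the HT group differed from NC in these loops. The deposited table gave running identifiers with no sequence, coordinates or host genes beside them. The circRNAs are therefore named by identifier, without a known function, and the dissected tissue could not be checked against marker genes.

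The total count of back-splice reads, which is the depth behind every value below, was 225551, 230559 and 259654 in NC and 258005, 177533 and 192748 in HT+SEA. Averaged by group, NC had 238588 ± 18415 and HT+SEA had 209429 ± 42751 (SD, n = 3), a difference within the spread of the libraries (two-sided exact permutation test, p = 0.3, adjusted over 3 tests 0.6). With 3 libraries against 3 this test cannot go below 0.1. A library listed 10929 to 11784 circRNAs in NC and 10154 to 12112 in HT+SEA, with means of 11428 ± 445 and 10858 ± 1088 (SD, n = 3; exact permutation test, p = 0.4, adjusted 0.6). When all 6 libraries were reduced to the depth of the smallest, 177533 reads, the expected numbers were 10459 ± 209 and 10337 ± 381 (SD, n = 3; exact permutation test, p = 0.7, adjusted 0.7). The number of different circRNAs was thus not shown to differ between the groups, with or without correction for depth.

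The likeness of whole profiles between HT+SEA and NC libraries spanned the range found within each group. Across the 4838 circRNAs that were tested, Pearson's r of the log2 CPM (the count scaled by library size, here with a prior count of 2) was 0.749 to 0.792 for the 3 pairs of NC libraries, 0.756 to 0.787 for the 3 pairs of HT+SEA libraries and 0.739 to 0.815 for the 9 pairs that crossed the groups. The correlation is across circRNAs, which are not independent replicates, and is given as a description. The closest pair of all was a crossed one, NC replicate 2 with HT+SEA replicate 1 (r = 0.815).

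Single circRNAs were tested with edgeR in 1 fit of all 12 libraries. The study's threshold, an unadjusted p below 0.05, was passed by 143 of 4838 circRNAs (2.96%). Of these, which are said to be called below, 61 (1.26%) were higher in HT+SEA and 82 (1.69%) were lower. Fewer were called than the 241.9 that an unadjusted threshold of 0.05 would let through with no difference at all. None passed a Benjamini-Hochberg adjusted p below 0.05 with edgeR (smallest adjusted p 0.9995), with DESeq2, which called 99 unadjusted, or with limma-voom, which called 192. The plot of p values shows the shortfall at its left end. In bulk tissue, fewer cells of a type and less of a circRNA per cell cannot be told apart. For comparison, HT against NC gave 165 calls (3.41%, with 1.26% higher and 2.15% lower) and HT+EA against NC gave 120 (2.48%, with 1.12% higher and 1.36% lower). Neither had any after adjustment, and all 3 contrasts share the NC libraries.

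**Figure D1:**
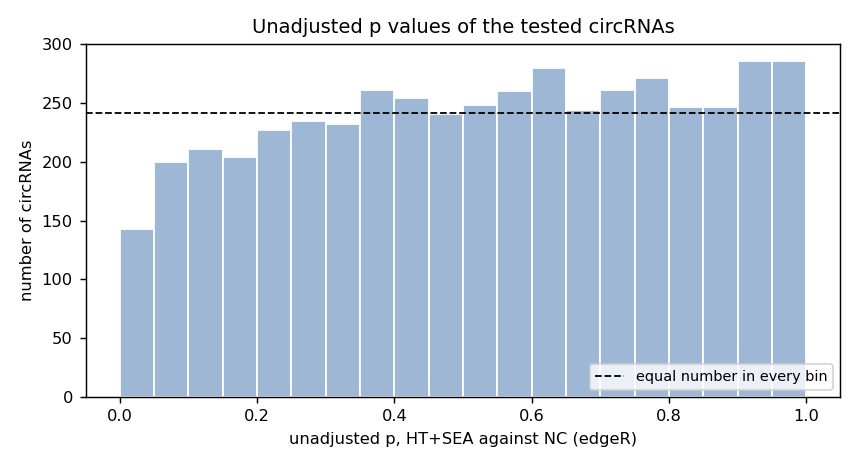
Number of tested circRNAs (vertical axis) by unadjusted p of HT+SEA against NC in bins of 0.05 (horizontal axis). The lowest bin holds 143 circRNAs, below the dashed line at 241.9 that marks an equal number in every bin.

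Leaving out single NC libraries changed which way most calls pointed, whereas leaving out single HT+SEA libraries did not. The filter was applied anew each time and let 5373 to 5528 circRNAs through, so the circRNAs tested were not the same. Without NC replicate 1, 2 or 3 more calls were higher than lower in HT+SEA (101 against 91, 129 against 90 and 98 against 76), while without HT+SEA replicate 1, 2 or 3 more were lower (57 against 117, 57 against 90 and 56 against 86). With all libraries kept, limma-voom gave 100 higher and 92 lower, and edgeR on circRNAs listed in all 12 libraries gave 88 and 79. The excess of lower calls over higher ones therefore held neither in every set of libraries nor with every method.

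The libraries bounded the difference tightly for abundant circRNAs and loosely for rare ones. For 1512 of the 4838 (31.3%), the 95% interval of the difference lay inside a 2-fold change in either direction. This share was 0.103% in the lowest of 5 equal classes of mean CPM (14.8 to 49.5 CPM) and 83.3% in the highest (221 to 19199 CPM). The median standard error of the log2 fold change was 0.76 and 0.24 in these classes. Calls were 2.07% of the lowest class, 4.24% of the next to highest and 3.10% of the highest. The median log2 fold change over all tested circRNAs was -0.0047, with quartiles of -0.27 and 0.27.

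**Figure D2:**
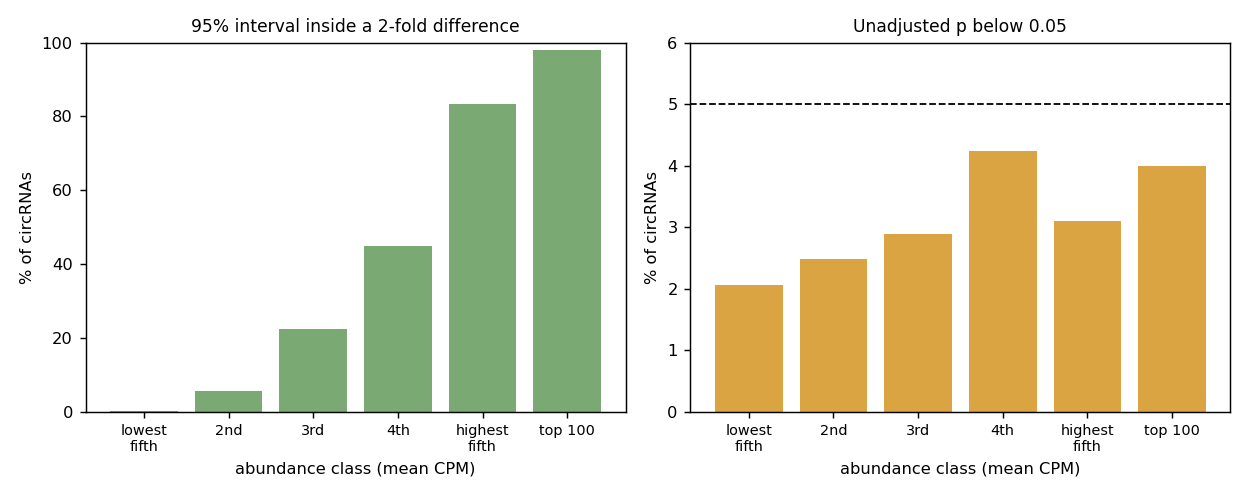
Share of circRNAs in % (vertical axes) by abundance class, from the lowest of 5 equal classes of mean CPM to the 100 most abundant (horizontal axes). Left, intervals inside a 2-fold difference reach 98% of the 100 most abundant circRNAs. Right, calls at unadjusted p below 0.05 stay under the dashed line at 5% in every class.

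Among the 100 most abundant circRNAs the interval lay inside a 2-fold difference for 98, and their log2 fold changes ran from -0.37 to 0.46. The most abundant, novel_circ_0039775, had 4000, 3666 and 4972 counts in NC against 4029, 2700 and 3226 in HT+SEA. Its CPM was 20431 ± 2073 in NC and 18159 ± 917 in HT+SEA (SD, n = 3), a log2 fold change of -0.17 with a 95% interval of -0.35 to 0.01 (edgeR unadjusted p = 0.0620, adjusted 0.9995). The CPM of both groups overlapped, and it was called only when NC replicate 2 (-0.22), HT+SEA replicate 3 (-0.22) or HT replicate 3 (-0.19) was left out and with no filter (-0.19). Next in abundance were novel_circ_0034471, with a log2 fold change of -0.15 (95% interval -0.52 to 0.21), and novel_circ_0010853, with 0.06 (-0.12 to 0.23), so for both these libraries leave room for a modest difference only. For novel_circ_0016268, which follows further down and is 1 of the study's node circRNAs, the value was 0.18 (-0.22 to 0.57).

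Of these 100, 4 were called, all lower in HT+SEA. The largest level belonged to novel_circ_0019548, with 1180, 1007 and 1177 counts in NC against 1121, 621 and 726 in HT+SEA, or 5464 ± 465 and 4439 ± 582 CPM (SD, n = 3). Its log2 fold change was -0.30 (SE 0.10, edgeR unadjusted p = 0.0133, adjusted 0.9995), and HT+SEA replicate 1 at 5084 CPM lay just above NC replicate 2 at 5068, so the groups touched. The others, chosen after their values were seen, were novel_circ_0035548, novel_circ_0032425 and novel_circ_0039771, with log2 fold changes of -0.35, -0.30 and -0.37. In these 3 every HT+SEA library lay below every NC library. The call of novel_circ_0019548 was lost without NC replicate 1 or HT+SEA replicate 2, and those of the others when any of 3 to 5 libraries, NC or HT+SEA, was left out. With edgeR on only the 6 libraries novel_circ_0035548 and novel_circ_0032425 were not called, and the latter was also lost with DESeq2 on those libraries, with no filter and among circRNAs listed in all 12.

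**Figure D3:**
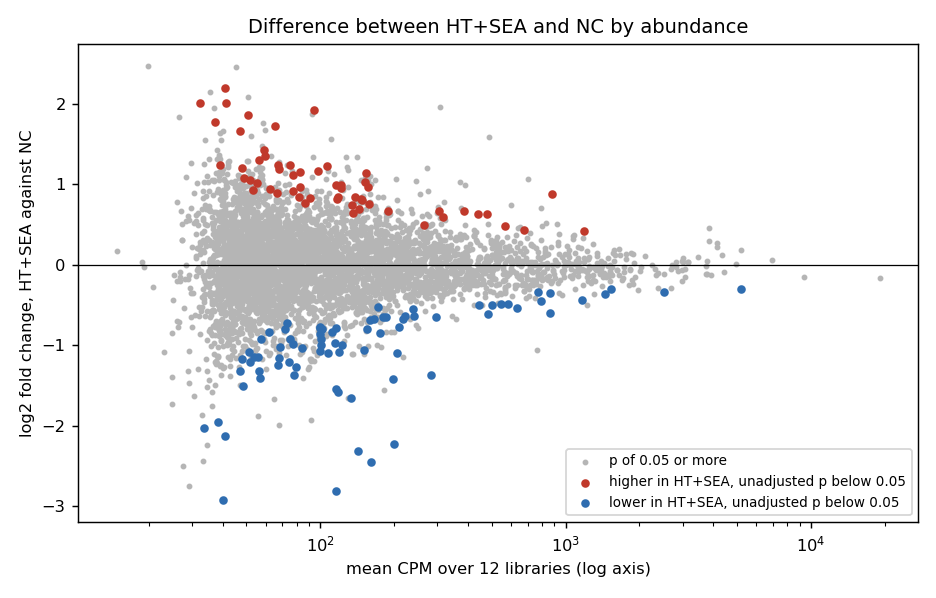
Log2 fold change of HT+SEA against NC (vertical axis) by mean CPM over 12 libraries (horizontal log axis) for 4820 circRNAs. The 57 called higher (red) and 78 called lower (blue) sit further from 0 where CPM is low, and the 18 circRNAs at 0 in all libraries of 1 group, 8 of them called, are left out because they have no fold.

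Of the 143 calls, 119 had counts in all 6 libraries, 51 higher and 68 lower, as had 4180 of the 4838 circRNAs tested, and in 99 of the 119 (42 higher, 57 lower) the CPM of the groups did not overlap. Over all tested circRNAs, 228 (4.71%) lay wholly higher and 228 (4.71%) wholly lower in HT+SEA. Among the 119 calls with counts in all 6 libraries, termed graded here, the median size was 0.92 on the log2 scale for the higher and 0.83 for the lower ones. Of these, 19 and 26 exceeded 2-fold. The graded circRNAs named next for their smallest p were taken only from those without overlap, so their separation was set by the choice.

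The higher graded circRNA with the smallest p was novel_circ_0015659, with 13, 14 and 13 counts in NC against 28, 24 and 31 in HT+SEA. Its CPM was 65.1 ± 5.74 in NC and 154 ± 27.9 in HT+SEA (SD, n = 3), a 2.35-fold difference with a log2 fold change of 1.23 (SE 0.33, edgeR unadjusted p = 0.00232, adjusted 0.9995). Every HT+SEA library was higher than every NC library, as the rule that named it required, and the call held in all 18 alternatives that were run. In HT its CPM was 102 ± 34.6 (SD, n = 3) and in HT+EA 104 ± 17.4 (SD, n = 3), between both groups. The next, novel_circ_0023017, had 11, 8 and 15 counts in NC against 31, 20 and 15 in HT+SEA, or 54.7 ± 13.96 and 119 ± 27.1 CPM (SD, n = 3). Its log2 fold change was 1.11 (SE 0.33, edgeR unadjusted p = 0.00487, adjusted 0.9995), and all HT+SEA libraries were above all NC libraries by CPM. The call was lost with DESeq2 on only the 6 libraries (unadjusted p = 0.0832). In HT it stood at 62.2 ± 5.48 CPM (SD, n = 3), near NC.

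The lower graded circRNA with the smallest p was novel_circ_0010813, an abundant one, with 236, 189 and 215 counts in NC against 154, 101 and 121 in HT+SEA. Its CPM was 1041 ± 134 in NC and 685 ± 37.0 in HT+SEA (SD, n = 3), with no overlap. The log2 fold change was -0.60 (SE 0.17, edgeR unadjusted p = 0.00321, adjusted 0.9995), and it was called in all 18 alternatives. HT, at 894 ± 79.4 CPM, and HT+EA, at 833 ± 164 CPM (SD, n = 3), lay between. A larger difference at low counts was that of novel_circ_0037718, with 13, 12 and 11 counts in NC against 2, 2 and 3 in HT+SEA. At 58.7 ± 8.06 and 13.2 ± 4.32 CPM (SD, n = 3) its log2 fold change was -2.13 (SE 0.59, edgeR unadjusted p = 0.00340, adjusted 0.9995). Its counts in HT were 10, 9 and 2, so 1 HT library, replicate 3, was as low as HT+SEA. The call was lost with limma-voom.

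**Figure D4:**
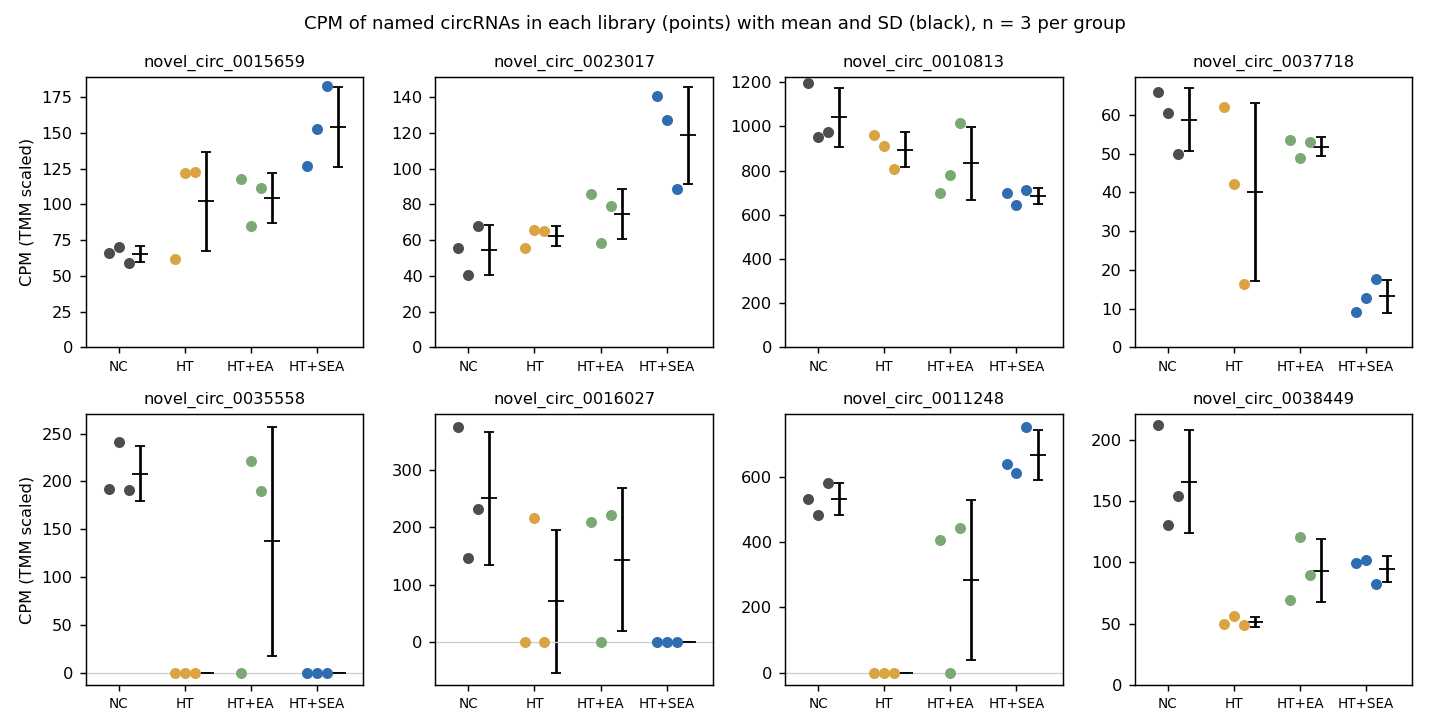
CPM (vertical axes) of 8 named circRNAs in every library of NC, HT, HT+EA and HT+SEA (points), with the mean and SD of each group in black (n = 3). The top row shows the 4 graded circRNAs, with HT+SEA wholly above or below NC by the rule that named them. In the bottom row novel_circ_0035558 and novel_circ_0016027 are at 0 in every HT+SEA library while novel_circ_0011248 is at 0 in every HT library.

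The largest graded differences, chosen after their values were seen, were less steady. novel_circ_0010666 had 37, 29 and 33 counts in NC against 3, 6 and 3 in HT+SEA, a log2 fold change of -2.81 (SE 1.21, edgeR unadjusted p = 0.0366, adjusted 0.9995). In the operated libraries without needles it ranged widely, with 0, 74 and 20 counts in HT. In fits of all 12 libraries it was not called with DESeq2, limma-voom or robust empirical Bayes. Of the 6 libraries compared only HT+SEA replicate 2 could be left out without losing the call. In fits of only the 6 libraries, novel_circ_0010666 was called with edgeR (unadjusted p = 0.000149, adjusted 0.201) and with DESeq2 (unadjusted p = 9.05e-05, adjusted 0.122). With no filter its edgeR adjusted p was 0.000220. novel_circ_0023289 had 10, 14 and 7 counts in NC against 21, 67 and 12 in HT+SEA, a log2 fold change of 1.93 (SE 0.62, edgeR unadjusted p = 0.00833, adjusted 0.9995). That size rested on HT+SEA replicate 2, without which the log2 fold change was 0.70 and the call was lost.

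A further 24 calls had a 0 in at least 1 of the 6 libraries, 10 higher and 14 lower. The table holds no value of 1, so a 0 stands for any number of reads too low to be listed, or for a loop its caller missed there, and no fold is given where all libraries of a group are at 0. Over the whole table of 21914 circRNAs, 5496 were listed in all 6 libraries. Another 115 (0.525%) were listed in all NC libraries and at 0 in all HT+SEA libraries, and 78 (0.356%) showed the opposite. These were nearly all rare, with a median group mean of 3.67 counts for the former and 3.33 for the latter. Only 2 of them had at least 10 counts in each library of the group that listed them, and both were listed in NC. HT+SEA replicates 2 and 3 were the shallowest of the 6 libraries, and the part of depth in the excess of circRNAs at 0 in HT+SEA was not tested.

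The first of these, novel_circ_0035558, had 38, 48 and 42 counts in NC and was listed at 0 in all 3 HT+SEA libraries. Its NC level was 208 ± 28.9 CPM (SD, n = 3). It was also at 0 in all 3 HT libraries and in HT+EA replicate 1, whereas HT+EA replicates 2 and 3 had 68 and 36 counts. All 6 libraries from operated rats without current thus listed none, and all 3 from NC did. It had the smallest unadjusted p of the comparison (edgeR unadjusted p = 0.00142, adjusted 0.9995). It is a node circRNA of the study, picked from HT against NC on these same NC libraries. Neither its HT nor its NC counts are independent of that choice. In fits of only the 6 libraries compared it passed the adjustment, with edgeR (adjusted p = 0.0386) and with DESeq2 (1.09e-05). There it could pass the filter only through NC, where it was high, so these p-values are not independent evidence. With limma-voom on all 12 libraries it was not called at all (unadjusted p = 0.216). Over all alternatives its adjusted p ran from 3.53e-13 to 1.

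The second, novel_circ_0016027, had 74, 29 and 51 counts in NC, or 251 ± 116 CPM (SD, n = 3), and was at 0 in all HT+SEA libraries (edgeR unadjusted p = 0.00707, adjusted 0.9995). It switched within the other groups too. HT had 0, 46 and 0 counts and HT+EA had 39, 0 and 42. Its adjusted p over the alternatives ran from 1.23e-16 to 1, and on only the 6 libraries it was 7.22e-06 with DESeq2 and 0.0949 with edgeR. On only those 6 libraries it could pass the filter through NC alone, and it was named for its NC counts. These p-values are therefore not independent evidence. The call was lost with limma-voom (unadjusted p = 0.294). Of the 3 tested circRNAs with this pattern the remaining one, novel_circ_0015810, had 5, 7 and 5 counts in NC and 0 in HT+SEA, but 3, 15 and 4 in HT and 3, 17 and 11 in HT+EA, so that HT+SEA was the only group of the 4 without it (edgeR unadjusted p = 0.00347, adjusted 0.9995). It was chosen after its values were seen, as the count is small, and its call was lost with limma-voom (unadjusted p = 0.111).

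In the opposite direction no circRNA listed in all HT+SEA libraries and at 0 in all NC libraries was abundant enough to be tested. The best counted were novel_circ_0030959, with 14, 6 and 4 counts in HT+SEA, and novel_circ_0011624, with 5, 9 and 7. The former was also seen in HT (5, 7 and 0 counts) and in 1 HT+EA library (10 counts), and the latter in 1 HT+EA library only (5 counts). Called circRNAs at 0 in all NC libraries numbered 4, each listed in 2 of the 3 HT+SEA libraries. These were novel_circ_0019568 (38, 48 and 0 counts in HT+SEA), novel_circ_0025913 (29, 8 and 0), novel_circ_0026589 (0, 21 and 23) and novel_circ_0006269 (0, 11 and 10). Each was also listed in some HT library, with 0, 44 and 17 counts of novel_circ_0019568, 11, 5 and 0 of novel_circ_0025913, 22, 0 and 0 of novel_circ_0026589 and 6, 10 and 0 of novel_circ_0006269. They were chosen after their values were seen, and since 1 HT+SEA library in each equals NC at 0, the groups overlapped. Each of the 4 had an edgeR adjusted p of 0.9995 with the filter used. Unfiltered edgeR gave adjusted values of 2.29e-10 for novel_circ_0019568, 0.000293 for novel_circ_0025913 and 0.000359 for novel_circ_0026589. For novel_circ_0006269 the unfiltered value was 0.162, so it did not pass. None of the 4 was called with limma-voom, nor novel_circ_0019568 and novel_circ_0026589 with DESeq2. Leaving out any NC library ended the calls of novel_circ_0026589 and novel_circ_0006269, as did leaving out HT+SEA replicate 2 or 3.

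The study traced 44 node circRNAs from its mRNA and microRNA networks, 6 raised and 16 lowered by HT and 13 raised and 9 lowered by HT+EA. A node circRNA had to move with its linked mRNA and against its linked microRNA. All 44 were in the table and 31 passed the filter on low counts, while the other 13 had mean counts of 0 to 9.67 over the 6 libraries. Of the 31, 3 were called in HT+SEA against NC, beside 2.96% of all tested circRNAs, and none passed the adjustment. HT+SEA took no part in how the lists were made, but the lists of HT were chosen against the NC libraries used here, so their direction is not independent evidence.

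None of the 4 tested circRNAs listed as raised by HT was called, and their log2 fold changes in HT+SEA against NC were all above 0, with a median of 0.61 beside -0.0047 over all circRNAs. The largest of these was that of novel_circ_0040150, with 27, 31 and 53 counts in NC against 123, 26 and 31 in HT+SEA. Its log2 fold change of 0.78 (95% interval -0.61 to 2.17) rested on HT+SEA replicate 1, without which it was -0.04. For novel_circ_0020665, with 58, 150 and 49 counts in NC against 88, 93 and 194 in HT+SEA, the value was 0.75 (-0.27 to 1.76), and with 1 library left out it ran from 0.21 (without HT+SEA replicate 3) to 1.48 (without NC replicate 2, where it was called). The groups overlapped in both.

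Of the 10 tested circRNAs listed as lowered by HT, 7 lay below 0 and 3 above, with a median of -0.54. The 2 called were both lower, novel_circ_0035558, described above, and novel_circ_0038449. The latter had 42, 26 and 34 counts in NC against 22, 16 and 14 in HT+SEA, or 166 ± 42.1 and 94.7 ± 10.6 CPM (SD, n = 3), with every HT+SEA library below every NC library. Its log2 fold change was -0.80 (SE 0.30, edgeR unadjusted p = 0.0202, adjusted 0.9995), and the call was lost with DESeq2 and without NC replicate 1 or HT+SEA replicate 3. In HT it was lower still, at 51.6 ± 3.98 CPM (SD, n = 3), and HT+SEA exceeded HT by 0.86 on the log2 scale (edgeR unadjusted p = 0.0246, adjusted 0.9993, in a contrast that called 3.29% of all circRNAs, 1.86% higher and 1.43% lower). The study listed novel_circ_0038449 for its low level in these same HT libraries, so its difference between HT+SEA and HT is not independent of that choice.

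Tested node circRNAs that were listed at 0 in every HT library had various counts in HT+SEA, and the differences among them were not tested. novel_circ_0011248, which was at 0 in every HT library, had 105, 96 and 128 counts in NC against 141, 96 and 128 in HT+SEA. Its CPM was 532 ± 49.1 in NC and 668 ± 75.8 in HT+SEA (SD, n = 3), higher in all 3 HT+SEA libraries, with a log2 fold change of 0.33 (95% interval -1.50 to 2.15, edgeR unadjusted p = 0.700). That interval uses a spread estimated from all 12 libraries, HT and HT+EA included. In fits of only the 6 libraries compared the unadjusted p was 0.108 with edgeR and 0.197 with DESeq2. HT+SEA against HT had an unadjusted p of 0.000326 for novel_circ_0011248 (edgeR adjusted p = 0.9993), but its 0 in HT was a reason for picking it, so this p is not independent evidence. novel_circ_0018079, which HT libraries likewise lacked, had NC counts of 38, 36 and 26 and HT+SEA counts of 31, 0 and 0, so that 1 HT+SEA library was at the NC level and 2 were at 0, and it was called lower only with no filter or when that library, HT+SEA replicate 1, was left out. In contrast, novel_circ_0035558 was at 0 in HT and HT+SEA alike. The remaining members with this HT pattern had counts in NC and HT+SEA that overlapped, 12, 17 and 18 against 23, 0 and 22 for novel_circ_0017802 and 0, 9 and 13 against 6, 5 and 11 for novel_circ_0006485, which is on the list raised by HT+EA. All but novel_circ_0035558 were chosen after their values were seen.

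**Figure D5:**
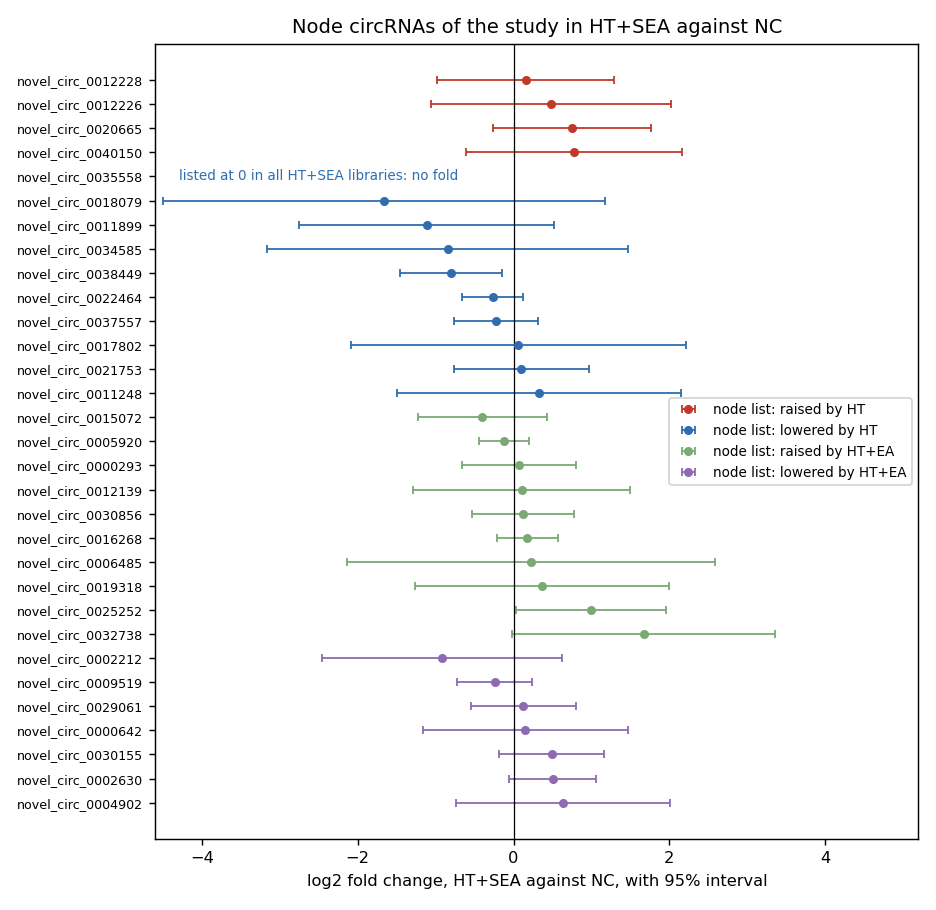
Log2 fold change of HT+SEA against NC with 95% interval (horizontal axis) for the 31 tested node circRNAs (rows), coloured by the study's list. Of the 30 with a fold, only the intervals of novel_circ_0038449 and novel_circ_0025252 leave out 0, and novel_circ_0035558 has no fold because all HT+SEA libraries list it at 0.

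Of the 10 tested circRNAs listed as raised by HT+EA (relative to HT), 8 lay above 0 in HT+SEA against NC, with a median of 0.15, and 1 was called. This was novel_circ_0025252, with 14, 20 and 17 counts in NC against 40, 16 and 36 in HT+SEA, or 82.9 ± 15.7 and 165 ± 56.9 CPM (SD, n = 3). The lowest HT+SEA library, at 101.9 CPM, was barely above the highest NC library, at 100.7 CPM. Its log2 fold change was 0.995 (SE 0.45, edgeR unadjusted p = 0.0444, adjusted 0.9995), and the call was lost with DESeq2 and when any of NC replicates 1 and 3 and HT+SEA replicates 1 and 3 was left out. In HT+EA it had 155 ± 37.1 CPM (SD, n = 3), close to HT+SEA. The next of this list, novel_circ_0032738, had 5, 11 and 0 counts in NC against 5, 22 and 17 in HT+SEA, with a log2 fold change of 1.67 (95% interval -0.02 to 3.36, edgeR unadjusted p = 0.0524). With 1 library left out it ran from 1.06 (without NC replicate 3) to 2.77 (without NC replicate 2), and it was called without NC replicate 2 or HT+SEA replicate 1 but not without any other of the 6. DESeq2 called it too (unadjusted p = 0.0494). It was 1.15 without HT+SEA replicate 2.

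None of the 7 tested circRNAs listed as lowered by HT+EA (relative to HT) was called. Their median was 0.15 and 5 lay above 0. The smallest p belonged to novel_circ_0002630, with 57, 54 and 34 counts in NC against 63, 58 and 61 in HT+SEA and a log2 fold change of 0.50 (95% interval -0.06 to 1.06), and to novel_circ_0030155, with 39, 88 and 85 counts in NC, 94, 87 and 79 in HT+SEA and a value of 0.49 (-0.18 to 1.16). In both the groups overlapped by CPM, and the former ran from 0.25 without NC replicate 3 to 0.67 without NC replicate 1, where it was called. For 9 of the 31 tested node circRNAs the interval lay inside a 2-fold difference, and for the others these libraries could not bound it so far.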

How the data were processed

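Per the study's methods, total RNA of the PVN was made into strand-specific libraries and sequenced on Illumina HiSeq instruments, and reads were filtered for quality. The methods give mRatBN7.2 as genome with HISAT2 and featureCounts, but not for circRNAs in particular, and the submitters' processing notes give GRCh38. Which program called the circRNAs is not given in the sources used here. Raw counts of each circRNA per library were deposited by the authors, neither normalised nor pooled, with no value of 1. The 12 TPM columns were not used.

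Groups came from the sample labels. The labels do not tie libraries to single rats, so p-values measure the spread between libraries. Libraries of a group differed by more than sampling noise (chi-square per degree of freedom 2.71 to 4.22), and each counted as 1 replicate. Counts were tested with edgeR 4.0.16 (R 4.3.3) by glmQLFit and glmQLFTest, two-sided, with TMM, filterByExpr defaults (minimum count 10, minimum total 15) and 4 groups in 1 fit. This left 4838 of 21914 circRNAs, holding 86.5% to 87.7% of the counts of the 6 libraries. The common biological coefficient of variation was 34.6%. CPM are TMM scaled. Standard errors came from the quasi-likelihood F, and intervals used its t quantile. Scripts were tested on simulated data.

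Named were the 2 higher and 2 lower circRNAs with the smallest p among graded calls without overlap, the 2 best counted in each direction at 0 in 1 whole group, the 5 most abundant and the 2 with the smallest p of each node list. The members and lists were chosen with earlier results of these data known. Alternatives were DESeq2 1.42.0, limma-voom (limma 3.58.1), robust empirical Bayes, other scalings and filters, fewer libraries, and a replicate block.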

Additional observations from a re-analysis of the deposited data

Results flagged for a closer look

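HT+SEA against HT tests whether the differences from NC in HT+SEA and in HT are unequal. Of the 30 named circRNAs that were tested, 13 passed an unadjusted p below 0.05 in this contrast (edgeR), where 3.29% of all 4838 passed, and none passed an adjusted p below 0.05, each having an adjusted p of 0.9993. Most of them were named for their difference between HT+SEA and NC, and HT+SEA against HT uses the same HT+SEA libraries, so the number is not independent of the choice. Some were also on node lists of the study that were chosen with these HT libraries. These were novel_circ_0011248 and novel_circ_0038449, listed as lowered by HT, and novel_circ_0025252 and novel_circ_0032738, listed as raised by HT+EA. For them a low level in HT was part of the choice, so their p in this contrast is not independent evidence. The unadjusted p was 0.000326 for novel_circ_0011248, which was at 0 in HT and present in HT+SEA, and 0.00152 for novel_circ_0015810 and 0.0383 for novel_circ_0016027, which were at 0 in HT+SEA. It was 0.0149 for novel_circ_0023017, 0.0143 for novel_circ_0023289, 0.00996 for novel_circ_0025252, 0.0240 for novel_circ_0032738 and 0.0246 for novel_circ_0038449, all higher in HT+SEA than in HT. It was 0.0390 for novel_circ_0010813, 0.0208 for novel_circ_0037718, 0.0293 for novel_circ_0019548, 0.0165 for novel_circ_0039771 and 0.0315 for novel_circ_0010666, all lower in HT+SEA than in HT.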

How the results depend on the processing

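The unadjusted count of 143 was within 1.5 times with DESeq2, limma-voom, robust empirical Bayes, both other scalings, circRNAs listed in all 12 libraries and edgeR on only the 6 libraries. It was 529 among 21914 circRNAs with no filter, 321 among 10258 with a mean count of at least 2 and 30 with DESeq2 on only the 6 libraries. Leaving out 1 library gave 142 to 219 calls, most without NC replicate 2. Adjusted calls were 0, but 21 with no filter, 1 with edgeR and 2 with DESeq2 on only the 6 libraries. With 1 library left out they were 0 to 1, namely novel_circ_0029585 without NC replicate 1, novel_circ_0010960 without HT+SEA replicate 1 and novel_circ_0003217 without HT+SEA replicate 3. The calls on only the 6 libraries were novel_circ_0035558 and, with DESeq2, also novel_circ_0016027, which there passed the filter only through NC. Of the 21 with no filter, 19 pass the filter used, but only 10 were called with it. A 0 in at least 1 of the 6 libraries occurred in 19 of the 21. The cause was not tested. Node calls, 3, became 9 with no filter, 6 with a mean count of at least 2, 1 with DESeq2 on only the 6 libraries and 1 to 5 with 1 library left out (5 without NC replicate 2 or HT+SEA replicate 1, 1 without HT+SEA replicate 3). CircRNAs at 0 in 1 whole group, 193, were 2 at a count of at least 10, and 474 to 559 with 1 library left out, where fewer libraries have to agree. The number listed at equal depth differed by -341 to 5.25, reversed without HT+SEA replicate 3. With 1 library left out, 3 named log2 fold changes that were not called ranged across 0, novel_circ_0010853 from -0.00888 (without HT+SEA replicate 3) to 0.114, novel_circ_0034471 from -0.275 to 0.0864 (without NC replicate 3) and novel_circ_0040150 from -0.0355 (without HT+SEA replicate 1) to 1.05.

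Same-numbered NC and HT+SEA libraries did not deviate together (correlations of -0.03, 0.00 and 0.02), which gave no sign that the numbers pair them. With so few libraries in a group, these correlations cannot exclude a pairing. The replicate block gave 126 unadjusted and 0 adjusted calls, 3 node calls and 1414 intervals inside a 2-fold difference. Of the named circRNAs it ended the calls of novel_circ_0025252 (unadjusted p = 0.0521) and novel_circ_0026589 (0.0548) and added novel_circ_0030155 (0.0439), all with edgeR. Not every library correlated best with its own number. Leaving out HT replicate 3, an alternative chosen after seeing the data, gave 166 calls. Below 49.5 CPM hardly any interval excluded a 2-fold difference, and the part of depth in this was not tested.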

Other observations

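The circRNAs at 0 in all libraries of NC or of HT+SEA were also looked up in the remaining groups. Of the 115 listed in NC and at 0 in HT+SEA, 27 were at 0 in all HT libraries and 7 were listed in all of them, while 19 were at 0 in all HT+EA libraries and 22 were listed in all. Of the 78 listed in HT+SEA and at 0 in NC, 21 were at 0 in all HT libraries and 5 were listed in all, and 17 and 6 were so in HT+EA. Node circRNAs too rare to be tested showed both patterns. novel_circ_0030598, listed by the study as lowered by HT, had 9, 3 and 7 counts in NC and 0 in all HT and all HT+SEA libraries. novel_circ_0000381, listed as raised by HT, had 0 in all NC libraries, 4, 2 and 7 counts in HT and 7, 4 and 8 in HT+SEA. Both were singled out after their values were seen. Each of the 6 libraries compared listed at 0 between 31 and 46 circRNAs for which at least 20 counts were expected from the mean CPM of the other 11 libraries, most in NC replicate 3.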
